A study of Mus musculus with 6 samples.

Results

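The desmosome genes examined here are the desmosomal cadherins Dsg1a, Dsg1b, Dsg2, Dsg3, Dsc1, Dsc2 and Dsc3 and the plaque protein genes Pkp1, Jup and Dsp, 10 of the 43629 genes listed in the count table. They were taken by name and all 10 were abundant enough to be tested. RNA came from keratinocytes of female mice whose epidermis was isolated at postnatal day 3 (P3) and which were then grown in medium with 8% chelated serum and 0.05 mM CaCl2. The culture lasted 5 days according to the labels and methods, while a legend of the study gives a shorter time. There were 3 libraries from control mice and 3 from Dnmt1Δ/Δep mice, each prepared from poly(A)-selected RNA, and mice of both groups had a mixed C57BL/6J and 129SV background. Dnmt1Δ/Δep mice carried K5-Cre and 2 floxed Dnmt1 alleles (K5-Cre+ Dnmt1f/f), so that recombination was driven by the Keratin 5 promoter of basal keratinocytes. The labels give the genotype of the other mice as control and their titles read wt. The study uses control for Dnmt1f/f and Dnmt1f/+ mice, and the labels do not say which of these each library had. Replicates of the same number, 1 from each group, shared a lane of the flow cell.

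Desmosomes rivet neighbouring keratinocytes together. Desmogleins (Dsg) and desmocollins (Dsc) meet in the space between the cells, plakoglobin (Jup) and plakophilin 1 (Pkp1) bind their tails inside each cell, and desmoplakin (Dsp) ties the plaque to keratin filaments. In skin the cadherins are layered. Dsg1 and Dsc1 belong mainly to the upper, differentiating layers, Dsg3 and Dsc3 are strongest in the lower layers, and Dsg2 and Dsc2 are the isoforms most widely shared with other epithelia, grouped here with Dsg3 and Dsc3 as lower-layer cadherins. Low calcium in the medium limits the assembly of desmosomes and keeps many keratinocytes undifferentiated, so transcript levels in such a culture are not a measure of assembled junctions.

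The libraries held between 53433121 and 115526598 reads on genes. Dnmt1 itself, the DNA methyltransferase that copies methylation to new strands, was measured at 53.5, 51.4 and 43.9 RPKM (read counts scaled to exon length in kb and to library size) in control replicates 1, 2 and 3 and at 6.73, 7.36 and 6.87 RPKM in the Dnmt1Δ/Δep replicates (log2 fold change −2.83 ± 0.11, SE, edgeR's quasi-likelihood test, adjusted p = 8.1e-05). The keratinocyte genes were abundant in every library, with Krt5 between 5722 and 8558 RPKM, Krt14 between 3343 and 5981 RPKM, Trp63 between 27.6 and 44.8 RPKM and Cdh1 between 298 and 328 RPKM. The controls differed among themselves in some genes of the upper layers. Krt1, a keratin of differentiating cells chosen here after its values were seen, was at 12.1 RPKM in control replicate 1 against 80.6 and 120 RPKM in control replicates 2 and 3, whereas Dmkn, the most abundant suprabasal marker, was at 842, 807 and 902 RPKM. Values of the desmosome genes without control replicate 1, and without control replicate 3 where that moves them as far, are given beside the results they touch.

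Among the 10 desmosome genes, Dsc2 rose in Dnmt1Δ/Δep keratinocytes and no other gene changed beyond the thresholds. Upregulated and downregulated genes are those with an adjusted p of at most 0.05 and at least a 2-fold change, with p-values adjusted over all 16829 genes tested. By this rule 1 of 10 was upregulated, where 6.03% of all tested genes were, and 0 of 10 were downregulated, where 0.392% were. By the adjusted p alone 1 of 10 was higher, beside 7.71% of all tested genes, and 0 of 10 were lower, beside 1.66%. In edgeR 2 of the 10 had an unadjusted p of at most 0.05 on the lower side, a rule for which no share of all genes was computed. DESeq2 called 2 of the 10 lower, where over all genes it called 658 lower and edgeR called 279. The median log2 fold change of the 10 was −0.32, with 8 below 0 and 2 above, whereas the median of all tested genes was −0.001. The median of the 10 depended on the controls: it was −0.51 without control replicate 1, −0.11 without control replicate 3 and −0.20 with the replicate number as a block. The libraries of the groups did not overlap for 3 of the 10 genes, close to the 29.9% of all tested genes for which this was so. In these bulk libraries, fewer cells that express a gene and less RNA of it per cell cannot be told apart.

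**Figure D1:**
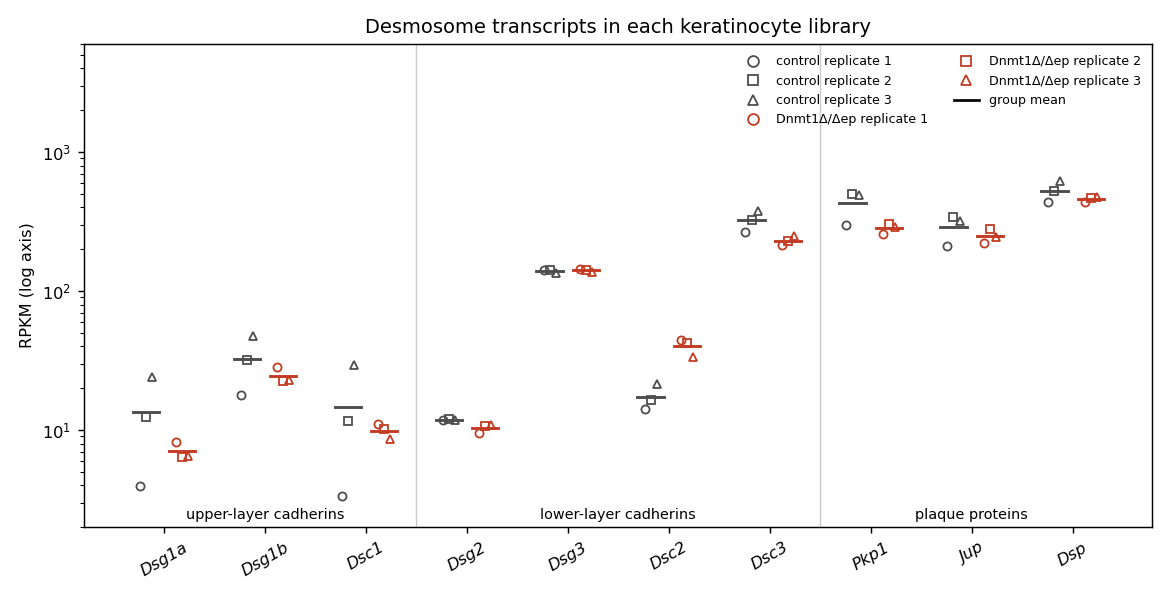
Transcript level of each desmosome gene in every library, in RPKM on a log axis, with control libraries in grey, Dnmt1Δ/Δep libraries in red, a marker shape for each replicate number and a bar for the group mean. Dsc2 is the gene whose 3 Dnmt1Δ/Δep libraries all lie above the 3 control libraries, and Dsg1a, Dsg1b and Dsc1 spread far more among controls than among Dnmt1Δ/Δep libraries.

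Desmocollin 2 (Dsc2, ENSMUSG00000024331) lies on the minus strand at chr18:20030633-20059554 (GRCm38). It was measured at 14.3, 16.4 and 21.4 RPKM in control replicates 1, 2 and 3, and at 44.6, 42.5 and 33.4 RPKM in Dnmt1Δ/Δep replicates 1, 2 and 3. Every Dnmt1Δ/Δep library lay above every control library. The rise was 2.32-fold (log2 fold change 1.21 ± 0.18, SE, adjusted p = 0.0075, edgeR's quasi-likelihood test). These levels rest on 6053 to 8412 reads per control library and 14042 to 20794 reads per Dnmt1Δ/Δep library, and no exon of Dsc2 overlaps another annotated gene. Within the lanes, the log2 ratio of Dnmt1Δ/Δep over control was 1.64 for replicate 1, 1.38 for replicate 2 and 0.64 for replicate 3, so the direction was the same in 3 of 3 pairs and the size was smallest in the third. The call held in all 12 alternative analyses, with log2 fold changes between 1.09 and 1.39.

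The other lower-layer cadherins did not pass the threshold. Desmocollin 3 (Dsc3, ENSMUSG00000059898, chr18:19960930-20002351, minus strand), the main desmocollin of basal cells, was the neighbouring gene and was measured at 265, 326 and 378 RPKM in the controls and at 214, 229 and 251 RPKM in the Dnmt1Δ/Δep libraries. All 3 Dnmt1Δ/Δep libraries lay below all 3 controls, but the difference did not pass the threshold (log2 fold change −0.48 ± 0.15, SE, adjusted p = 0.095). With the replicate number as a block Dsc3 did pass (−0.47, adjusted p = 0.037, edgeR), as it did with DESeq2 (−0.52, adjusted p = 0.030) and without control replicate 1 (−0.61, adjusted p = 0.019), whereas without any other single library the adjusted p rose to between 0.16 and 0.28. Within the lanes its log2 ratios were −0.31, −0.51 and −0.59. Desmoglein 3 (Dsg3, ENSMUSG00000056632, chr18:20510274-20547459, plus strand), the partner of Dsc3 in the lower layers, hardly moved between any 2 libraries. Its controls were at 141, 141 and 136 RPKM and its Dnmt1Δ/Δep libraries at 145, 142 and 138 RPKM, with a log2 fold change of 0.02 ± 0.09 (SE, adjusted p = 0.92). Desmoglein 2 (Dsg2, ENSMUSG00000044393, chr18:20558074-20604521, plus strand) shares with Dsc2 its wide distribution in epithelia. It was measured at 11.8, 12.0 and 11.9 RPKM in controls and at 9.46, 10.6 and 10.9 RPKM in Dnmt1Δ/Δep libraries. The groups did not overlap, yet the small difference did not pass the threshold (−0.20 ± 0.09, SE, adjusted p = 0.24), and 4.0% of the Dsg2 exons overlap the annotated gene Gm16090, where reads may have been left uncounted as ambiguous, depending on whether counting used strand.

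The upper-layer cadherins varied mainly among the controls. Desmocollin 1 (Dsc1, ENSMUSG00000044322, chr18:20084184-20114871, minus strand) was at 3.35, 11.6 and 29.3 RPKM in control replicates 1, 2 and 3 and at 11.0, 10.2 and 8.57 RPKM in the Dnmt1Δ/Δep libraries. Control libraries spanned 8.76-fold from lowest to highest, Dnmt1Δ/Δep libraries 1.29-fold, and the Dnmt1Δ/Δep values fell inside the control range. The log2 fold change was −0.57 ± 0.64 (SE, adjusted p = 0.68), and went to −1.04 without control replicate 1 (adjusted p = 0.098) and to 0.41, with the sign turned, without control replicate 3 (adjusted p = 0.67). Within the lanes Dsc1 went from 1.72 for replicate 1 to −0.19 for replicate 2 and −1.77 for replicate 3 on the log2 scale, so its direction depended on the control library used.

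Desmoglein 1, the target of autoantibodies in pemphigus foliaceus, has several gene copies in the mouse. Dsg1a (ENSMUSG00000069441, chr18:20310811-20343350, plus strand) was measured at 3.96, 12.4 and 24.0 RPKM in controls and at 8.24, 6.38 and 6.51 RPKM in Dnmt1Δ/Δep libraries. Dsg1b (ENSMUSG00000061928, chr18:20376729-20410196, plus strand) was measured at 17.9, 32.1 and 47.5 RPKM in controls and at 28.5, 22.4 and 22.8 RPKM in Dnmt1Δ/Δep libraries. For both genes control replicate 1 was below, and control replicates 2 and 3 were above, the Dnmt1Δ/Δep values, so the groups overlapped. Neither difference passed the threshold. The log2 fold change of Dsg1a was −0.93 ± 0.54 (SE, adjusted p = 0.36) and that of Dsg1b was −0.41 ± 0.32 (SE, adjusted p = 0.52). Both rested on single controls. Without control replicate 1, Dsg1a was called downregulated (−1.37, adjusted p = 0.021, edgeR), and without control replicate 3 it was at −0.22 (adjusted p = 0.82). Dsg1b was at −0.70 without control replicate 1 (adjusted p = 0.054) and at −0.03 without control replicate 3 (adjusted p = 0.96), and was called in none of its alternatives. The copies share sequence: 35.0% of the 50-base windows of Dsg1a and 49.0% of those of Dsg1b occur in another gene (the other copy or Dsg1c), so uniquely mapped reads understate both and the split between them is uncertain. With the counts of Dsg1a, Dsg1b and Dsg1c summed, the log2 fold change was −0.58 (adjusted p = 0.45).

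Which isoform a cell layer uses is a matter of proportion as well as level, so each isoform was also taken as a share of its family within a library, where depth cancels. Dsc2 made up 5.06%, 4.63% and 4.98% of desmocollin RPKM in the controls and 16.6%, 15.1% and 11.4% in the Dnmt1Δ/Δep libraries. The mean share was 4.89% ± 0.232 (SD, n = 3) in controls and 14.4% ± 2.65 (SD, n = 3) in Dnmt1Δ/Δep libraries, and the groups did not overlap. The share of Dsc3 went from 91.4% ± 2.86 (SD, n = 3) to 82.1% ± 3.23 (SD, n = 3), without overlap between the groups. As the shares of a family add up to the whole, this is not a result apart from that of Dsc2. Dsc1 held 3.77% ± 2.86 (SD, n = 3) of desmocollin RPKM in controls and 3.54% ± 0.585 (SD, n = 3) in Dnmt1Δ/Δep libraries, a difference smaller than the spread between controls. Dsc3 remained the main desmocollin in every library. These shares were compared without a test, since the genes were chosen with results of these libraries known.

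The ratio of Dsc2 to Dsc3 RPKM, drawn from the same values, was 0.054, 0.0502 and 0.0565 in the controls and 0.209, 0.186 and 0.133 in the Dnmt1Δ/Δep libraries. The desmoglein shares overlapped between the groups. Dsg1a and Dsg1b together held 12.5%, 22.5% and 32.6% of desmoglein RPKM in controls and 19.2%, 15.9% and 16.4% in Dnmt1Δ/Δep libraries, so the Dnmt1Δ/Δep values lay between the lowest and the highest control. The difference of the means, −5.39 percentage points, ran from −10.4 to −0.356 when single libraries were left out, while that of Dsc2, 9.46 points, ran from 8.36 to 10.9. Dsg3 held 80.7%, 71.4% and 62.0% in controls and 75.9%, 78.2% and 77.5% in Dnmt1Δ/Δep libraries, and Dsg2 held between 4.95% and 6.77% in all 6. Summed over the isoforms, desmoglein RPKM was 175, 198 and 219 in controls and 191, 181.0 and 178 in Dnmt1Δ/Δep libraries, while desmocollin RPKM was 282, 354 and 429 in controls and 270, 282 and 293 in Dnmt1Δ/Δep libraries. Both sums overlapped between the groups.

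**Figure D2:**
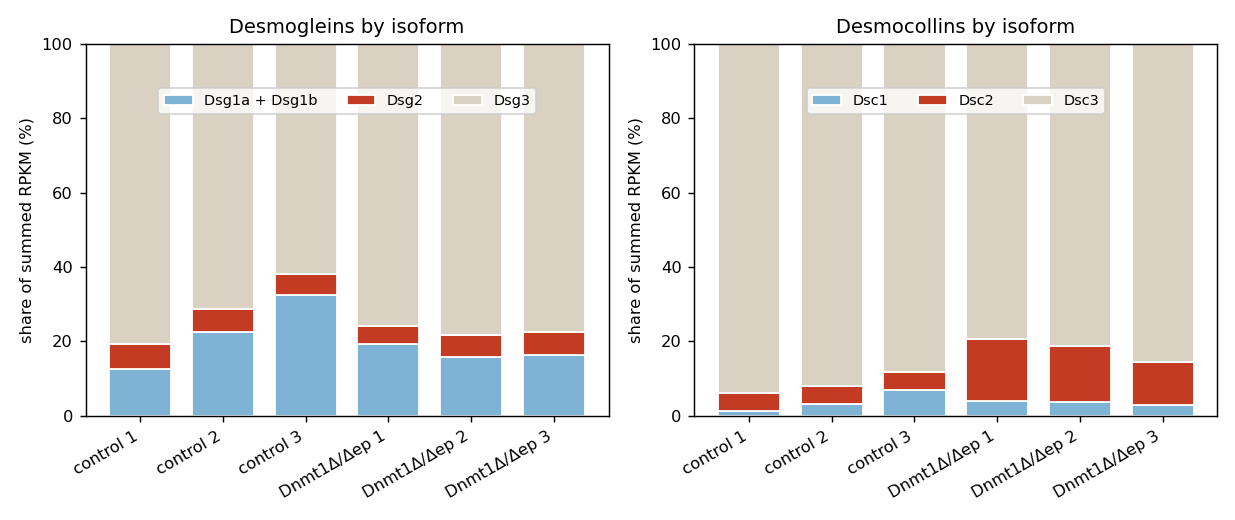
Share of each isoform in the summed RPKM of its family, in percent, with a bar for each library and desmogleins on the left and desmocollins on the right. The Dsc2 part of the desmocollin bars is between 4.63% and 5.06% in controls and between 11.4% and 16.6% in Dnmt1Δ/Δep libraries, whereas the Dsg1a and Dsg1b part of the desmoglein bars overlaps between the groups.

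The plaque genes were among the 4 most abundant of the set, with Dsc3, and had log2 fold changes between −0.60 and −0.19, none of which passed the test. Plakophilin 1 (Pkp1, ENSMUSG00000026413, chr1:135871395-135919207, minus strand), which clusters desmosomal cadherins and is lost in ectodermal dysplasia with skin fragility, was at 301, 499 and 490 RPKM in controls and at 260, 302 and 289 RPKM in Dnmt1Δ/Δep libraries. Control replicate 1 fell within the Dnmt1Δ/Δep range and the other controls lay above it. The log2 fold change was −0.60 ± 0.20 (SE, adjusted p = 0.12), and Pkp1 passed the adjusted p without control replicate 1 (−0.80, adjusted p = 0.0051, edgeR) and with DESeq2 (−0.63, adjusted p = 0.038). Its log2 ratios within the lanes were −0.21, −0.72 and −0.76.

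Plakoglobin (Jup, ENSMUSG00000001552, chr11:100368958-100397763, minus strand), which also serves adherens junctions, was at 211, 343 and 319 RPKM in controls and at 220, 279 and 246 RPKM in Dnmt1Δ/Δep libraries. Desmoplakin (Dsp, ENSMUSG00000054889, chr13:38151294-38198577, plus strand) was at 439, 524 and 617 RPKM in controls and at 439, 471 and 476 RPKM in Dnmt1Δ/Δep libraries, with 5.2% of its exons overlapping the annotated gene Gm10129. Both overlapped between the groups, with log2 fold changes of −0.23 (adjusted p = 0.57) for Jup and −0.19 ± 0.15 (SE, adjusted p = 0.51) for Dsp. Without control replicate 1 these were −0.42 (adjusted p = 0.074) and −0.31 (adjusted p = 0.13), and without control replicate 3 −0.16 (adjusted p = 0.74) and −0.06 (adjusted p = 0.85), by edgeR. Within a library, the ratio of Pkp1 to Dsp RPKM was 0.686, 0.953 and 0.794 in controls and 0.592, 0.641 and 0.608 in Dnmt1Δ/Δep libraries, so all 3 Dnmt1Δ/Δep ratios lay below the controls. The ratio of Jup to Dsp RPKM overlapped between the groups, with means of 0.551 in controls and 0.537 in Dnmt1Δ/Δep libraries. The ratio of plaque to cadherin RPKM overlapped as well, with means of 2.25 and 2.14. These ratios were outside the planned comparisons and were described without a test.

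Ordered by mean RPKM, the control libraries ran from Dsp at 526 ± 89.2 (SD, n = 3) through Pkp1, Dsc3, Jup, Dsg3, Dsg1b, Dsc2, Dsc1 and Dsg1a to Dsg2 at 11.9 ± 0.070 (SD, n = 3). Of the neighbours in that order, the libraries of Jup and Dsg3 and those of Dsg3 and Dsg1b did not overlap, and all other neighbours did. In the Dnmt1Δ/Δep libraries the order ran from Dsp at 462 ± 20.1 (SD, n = 3) through Pkp1, Jup, Dsc3, Dsg3, Dsc2, Dsg1b, Dsg2 and Dsc1 to Dsg1a at 7.04 ± 1.04 (SD, n = 3). Dsc2 stood in place 7 in controls and in place 6 in Dnmt1Δ/Δep libraries, where every library of it lay above every library of Dsg1b. Since reads shared with other copies lower the level of Dsg1b and Dsg1a, their places hold for uniquely mapped reads and the order of Dsc2 and Dsg1b is uncertain.

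**Figure D3:**
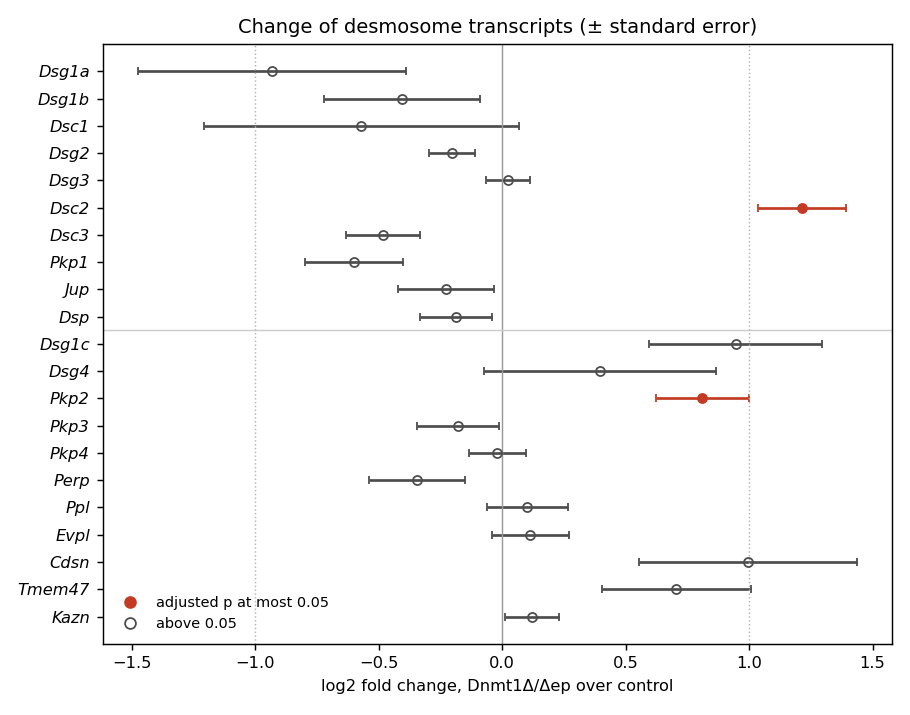
Log2 fold change of Dnmt1Δ/Δep over control for the 10 desmosome genes (above the line) and for 11 other genes of desmosomes and their envelope (below it), with bars for the standard error and filled red points for an adjusted p of at most 0.05. Dsc2 at 1.21 and Pkp2 at 0.81 are the filled points, and Dsg1a and Dsc1 have the widest bars of the 10 desmosome genes, at 0.54 and 0.64.

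The cadherin genes are neighbours. All 7 lie in a cluster of 644 kb at chr18:19960930-20604521, in which the annotation holds 11 genes, 9 of them desmosomal cadherins. The desmocollins, on the minus strand, come first in the order Dsc3, Dsc2, Dsc1, and the desmogleins, on the plus strand, follow in the order Dsg1c, Dsg1a, Dsg1b, Dsg4, Dsg3, Dsg2. On either side of Dsc2, Dsc3 and Dsc1 had log2 fold changes of −0.48 and −0.57, neither past the threshold. Dsg1c and Dsg4, cluster genes outside the set, were barely detected. Dsg1c had 28, 26 and 25 reads in controls and 44, 44 and 84 reads in Dnmt1Δ/Δep libraries (log2 fold change 0.95 ± 0.35, SE, adjusted p = 0.15), and Dsg4 had between 15 and 86 reads in any library (0.40, adjusted p = 0.70).

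**Figure D4:**
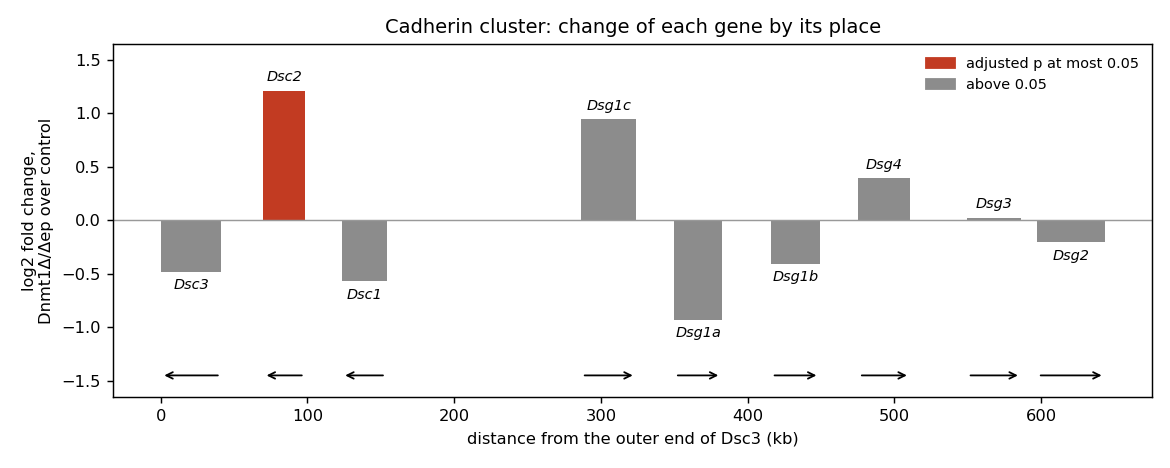
Log2 fold change of Dnmt1Δ/Δep over control for the 9 desmosomal cadherin genes, drawn over their span in the cluster as distance in kb from the outer end of Dsc3, with arrows for the direction of transcription and red for an adjusted p of at most 0.05. Dsc2 at 1.21 is the red bar, between Dsc3 at −0.48 and Dsc1 at −0.57.

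DNMT1 acts on cytosines followed by guanine, so the sequences just upstream of the plaque genes are shown with each CG in capitals. They are the 250 bases before the transcription start that RefSeq gives on GRCm38.p6, 5′ to 3′ on the gene's strand. RefSeq gave such windows for 2 of the 10 genes and not for Dsc2, and its start of Jup lies outside the gene span given above. The window of Jup is chr11:100397791-100398040 (minus strand) and that of Dsp is chr13:38151044-38151293 (plus strand).
Jup: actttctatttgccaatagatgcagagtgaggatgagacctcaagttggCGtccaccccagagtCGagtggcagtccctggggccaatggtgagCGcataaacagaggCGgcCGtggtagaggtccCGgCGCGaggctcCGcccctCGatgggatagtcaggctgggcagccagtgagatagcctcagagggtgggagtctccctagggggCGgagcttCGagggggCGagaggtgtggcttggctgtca
Dsp: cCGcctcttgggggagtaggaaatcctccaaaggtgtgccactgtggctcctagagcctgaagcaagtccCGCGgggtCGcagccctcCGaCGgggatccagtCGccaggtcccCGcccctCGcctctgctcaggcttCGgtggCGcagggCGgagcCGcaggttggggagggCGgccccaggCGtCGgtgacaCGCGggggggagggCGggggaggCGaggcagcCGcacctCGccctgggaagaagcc
The Jup window holds 13 CG, more than 68.5% of the 32851 promoter windows of this length, and the Dsp window holds 22, more than 85.2% of them, where the median window holds 6. Both contain GGGCGG on either strand, as 32.7% of all windows do. Neither contains TGANTCA (6.7% of windows), AACCGGTT (0.1%) or TATAAA (12.4%), searched on both strands. The levels downstream of these CG-rich windows, 211 to 343 RPKM for Jup and 439 to 617 RPKM for Dsp in controls, overlapped with those in Dnmt1Δ/Δep libraries. These libraries do not measure methylation of the windows, and its part in the levels was not tested.

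Of the 11 other genes that build or cover desmosomes, Pkp2 was higher and none was lower by the adjusted p alone, beside 7.71% and 1.66% of all tested genes. On the higher side 3, and on the lower side 0, had an unadjusted p of at most 0.05, for which no share of all genes was computed. DESeq2 likewise called 1 higher and 0 lower, beside 1860 and 658 over all genes. Plakophilin 2 (Pkp2), the plakophilin of heart and simple epithelia, was measured at 0.937, 0.772 and 0.917 RPKM in controls and at 1.56, 1.80 and 1.25 RPKM in Dnmt1Δ/Δep libraries. The groups did not overlap (log2 fold change 0.81 ± 0.19, SE, adjusted p = 0.040, edgeR), but its level stayed far below that of Pkp1 and the call was lost without Dnmt1Δ/Δep replicate 1 (adjusted p = 0.13), control replicate 2 (0.15), Dnmt1Δ/Δep replicate 2 (0.16) or control replicate 3 (0.080). Corneodesmosin (Cdsn), which is added to desmosomes of the outermost layers, was at 45.1, 95.9 and 159 RPKM in controls and at 217, 251 and 130 RPKM in Dnmt1Δ/Δep libraries (0.99 ± 0.44, SE, adjusted p = 0.23). Perp, a membrane protein of desmosomes and the most abundant of these genes, was at 1288, 1878 and 2214 RPKM in controls and at 1387, 1474 and 1375 RPKM in Dnmt1Δ/Δep libraries (−0.34, adjusted p = 0.35), and passed without control replicate 1 (−0.54, adjusted p = 0.025). Pkp3 (−0.18), Pkp4 (−0.02), periplakin (Ppl, 0.10), envoplakin (Evpl, 0.11), Tmem47 (0.71) and Kazn (0.12), given as log2 fold changes, had adjusted p values between 0.21 and 0.955.

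Among 18 proteases and inhibitors that act on desmosomal proteins, 4 were upregulated, beside 6.03% of all tested genes, and 0 downregulated, beside 0.392% (0 also had an unadjusted p of at most 0.05 on the lower side, and 0 by DESeq2), with a median log2 fold change of 0.49. Kallikrein 14 (Klk14), a serine protease of the upper epidermis, was at 0.0249, 0.0888 and 0.102 RPKM in controls and at 4.94, 3.03 and 2.21 RPKM in Dnmt1Δ/Δep libraries (5.59 ± 0.54, SE, adjusted p = 0.0014), a call that held in all 12 alternatives. These values rest on 3, 11 and 7 reads in controls and on 374, 333 and 331 reads in Dnmt1Δ/Δep libraries. The control level is thus near the floor, and Klk14 passed the count filter through the Dnmt1Δ/Δep libraries. Klk8 was at 25.5, 23.3 and 34.8 RPKM in controls and at 83.0, 82.0 and 49.6 RPKM in Dnmt1Δ/Δep libraries (1.36, adjusted p = 0.014), and lost its call without Dnmt1Δ/Δep replicate 1 (adjusted p = 0.059), control replicate 2 (0.065) or Dnmt1Δ/Δep replicate 2 (0.057). The others were Klk6 and Tmprss11e, each of which passed in 8 of 12 alternatives. None of 12 adherens junction genes passed the adjusted p in edgeR, by which 7.71% of all tested genes were higher and 1.66% lower. By unadjusted p, for which no share of all genes was computed, 4 were higher and 0 lower. DESeq2 called 2 higher and 0 lower, beside 1860 and 658 over all genes. Cdh1, E-cadherin, had a log2 fold change of 0.00 (adjusted p = 0.998, edgeR).

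Over all tested genes, 7.71% were higher and 1.66% lower by the adjusted p alone in edgeR. DESeq2 called 1860 genes higher and 658 lower over all genes, and no share by unadjusted p was computed, so counts by these 2 rules are not to be set beside the edgeR shares. Of the other lists, 14 signalling partners of desmosomes held 0 higher and 1 lower by the adjusted p alone (Prkca), and 21 epidermal transcription factors held 0 higher and 1 lower (Gata3). By unadjusted p, 0 partners were higher and 3 lower, and 3 transcription factors were higher and 3 lower. DESeq2 called 0 partners higher and 1 lower, and 1 transcription factor higher and 2 lower. Basal markers held 5 lower of 14 (Dst, Krt15, Krt14, Krt5 and Col17a1) and 0 higher, with 2 higher by unadjusted p and 0 by DESeq2, although the list's median log2 fold change was 0.18. Suprabasal markers held 2 higher of 16 (Calml3 and Cnfn) and 0 lower, with 6 higher and 4 lower by unadjusted p and 5 higher and 4 lower by DESeq2. Each of these 9 genes lost its call in at least 1 of the fits that left out a library. None of the 4 stress keratins passed by adjusted p, unadjusted p or DESeq2.

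The suprabasal markers did not move as a unit. Their median log2 fold change was 0.25, with 10 of 16 above 0 and 6 below. Krt1, Krt10, Ivl and Lor, named after their values were seen, show both directions and none passed the adjusted p in edgeR. Krt1 was at 15.0, 13.4 and 14.8 RPKM in Dnmt1Δ/Δep libraries (−2.30, adjusted p = 0.085). Krt10 was at 4.56, 15.2 and 14.0 RPKM in controls and at 4.99, 3.36 and 2.98 RPKM in Dnmt1Δ/Δep libraries (−1.58, adjusted p = 0.069). Both keratins passed without control replicate 1, Krt1 at −2.80 (adjusted p = 0.00046) and Krt10 at −1.96 (adjusted p = 0.0033), and with DESeq2 or without the filter on low counts. Each passed in 3 of 12 alternatives, and the smallest falls were −1.69 for Krt1 and −1.30 for Krt10. With the replicate number as a block they were at −1.85 (adjusted p = 0.15, edgeR) and −1.47 (adjusted p = 0.13, edgeR).

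Involucrin (Ivl) and loricrin (Lor), proteins of the cornified envelope, lay on the other side. Ivl was at 5.51, 5.60 and 13.4 RPKM in controls and at 27.5, 32.9 and 14.3 RPKM in Dnmt1Δ/Δep libraries (1.61, adjusted p = 0.061). Lor was at 3.94, 6.40 and 7.15 RPKM in controls and at 31.2, 16.4 and 9.36 RPKM in Dnmt1Δ/Δep libraries (1.70, adjusted p = 0.054). Ivl passed without control replicate 3 (2.16, adjusted p = 0.017) or Dnmt1Δ/Δep replicate 3 (1.89, adjusted p = 0.0499), Lor passed without Dnmt1Δ/Δep replicate 3 (2.03, adjusted p = 0.026), and both passed with DESeq2 or without the filter. Control replicate 1 was the lowest control in all 4 genes, as in Dsg1a, Dsg1b and Dsc1.

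Of 5 keratins of simple epithelia, 3 were upregulated, beside 6.03% of all tested genes, and the list's median log2 fold change was 1.70. Krt8 was at 0.923, 0.534 and 0.542 RPKM in controls and at 9.79, 6.87 and 3.995 RPKM in Dnmt1Δ/Δep libraries (3.36, adjusted p = 0.0029). Krt7 was at 25.3, 19.5 and 16.4 RPKM in controls and at 69.8, 55.4 and 44.5 RPKM in Dnmt1Δ/Δep libraries (1.47, adjusted p = 0.0071). In both keratins, as in Dsc2, the Dnmt1Δ/Δep level was highest in replicate 1 and lowest in replicate 3. Krt18, the partner of Krt8, was the third and passed in 8 of 12 alternatives.

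**Figure D5:**
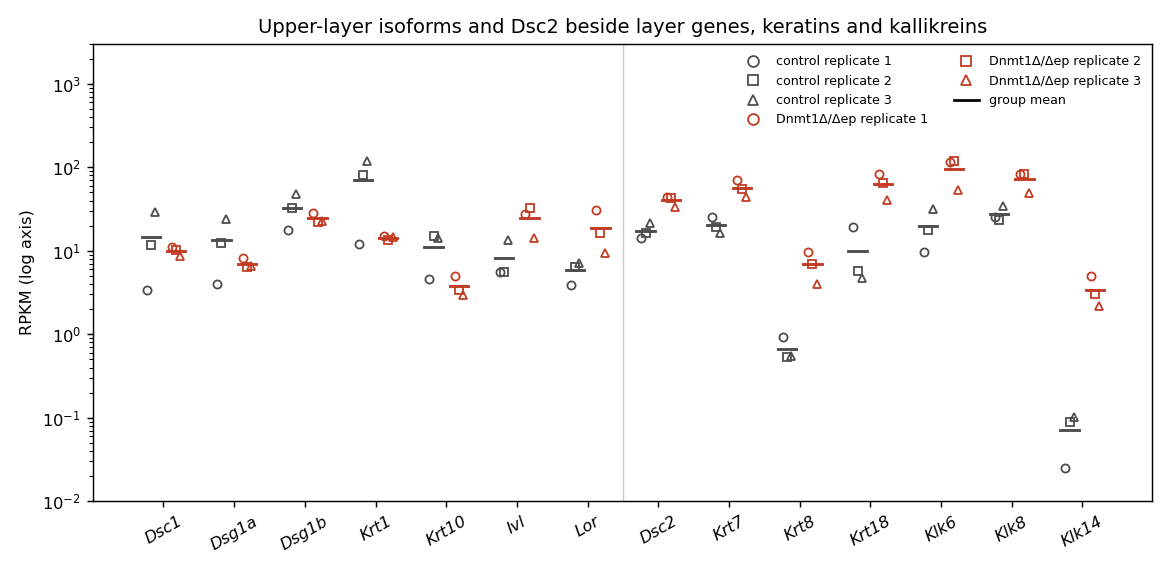
Levels in RPKM on a log axis of the upper-layer cadherins beside Krt1, Krt10, Ivl and Lor (left) and of Dsc2 beside simple-epithelium keratins and kallikreins (right), with control libraries in grey, Dnmt1Δ/Δep libraries in red and a bar for the group mean. On the left the groups overlap for the cadherins and keratins and not for Ivl and Lor, and on the right they overlap for no gene, where Klk14 starts from 0.0249 to 0.102 RPKM in controls.

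Markers of other cell types were summed in each library, and the sums overlapped between the groups for fibroblast markers and not for the other 3 lists. Melanocyte markers were above 0 on the log2 fold change scale for 8 of 8 genes, 0 past the adjusted p, by which 7.71% of all tested genes were higher. By unadjusted p, for which no share of all genes was computed, 5 were higher, and DESeq2 called 3 higher, beside 1860 over all genes. The summed level of melanocyte markers ran from 74.5 to 195 RPKM in controls and from 236 to 314 RPKM in Dnmt1Δ/Δep libraries. Leukocyte markers held 4 upregulated of 5 tested (6.03% of all tested genes were), with sums of 83.3 to 215 RPKM and 324 to 432 RPKM, made up almost wholly of S100a8 and S100a9, which keratinocytes also express. The other upregulated members were Itgam, at 0.0253 to 0.122 RPKM in controls and 0.237 to 0.354 RPKM in Dnmt1Δ/Δep libraries (2.35, adjusted p = 0.047), and Csf1r, at 0.0238 to 0.0675 RPKM and 0.136 to 0.418 RPKM (2.67, adjusted p = 0.027). Cd74 was at 0 to 0.0776 RPKM in controls and 0.0964 to 0.290 RPKM in Dnmt1Δ/Δep libraries (adjusted p = 0.14). The 6 members too low to be tested, Ptprc, Cd3e, Cd207, Lyz2, Itgax and Adgre1, were each at no more than 0.0765 RPKM in any library. Of the alternatives that gave a value, the calls held in 10 of 12 for S100a8, 6 of 12 for S100a9, 7 of 11 for Csf1r and 6 of 11 for Itgam. Endothelial markers held 2 upregulated of 4 tested (Pecam1 and Cdh5, both in 12 of 12 alternatives), with sums of 0.769 to 2.20 RPKM and 2.56 to 3.73 RPKM. The list did not move as a unit. Kdr (−0.16, adjusted p = 0.93, edgeR) and Tek (0.58, adjusted p = 0.41, edgeR) did not pass, and Emcn was too low to be tested. Cdh5 rested on 53, 11 and 5 reads in controls. Fibroblast markers held 1 upregulated of 10 (Fbn1, called in 6 of 12 alternatives), with sums of 3.06 to 5.87 RPKM and 3.81 to 12.2 RPKM. The part of these cells in the rise of Dsc2 was not tested.

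The pattern of 2 members over the libraries was compared with 9309 other genes that had a mean of at least 10 CPM (counts scaled to library size), as a description over 6 libraries that share their groups and lanes. Genes most like Dsc1 on the log2(CPM + 1) scale were Sdr16c6 (Pearson's r = 0.995), Slc35f5 (0.994), Cxadr (0.987), Ypel5 (0.987) and Mospd1 (0.985). Those most like Dsc3 were Il20rb (0.997), Serpinb5 (0.995), Ccni (0.995), Nusap1 (0.994) and Wls (0.994). Within the set, Dsc1 followed Dsg1a (0.94) and Dsg1b (0.94), Dsc3 followed Pkp1 (0.94) and Dsp (0.90), and Dsc2 ran opposite to Dsg2 (−0.88).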

How the data were processed

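RNA-seq of cultured P3 keratinocytes gave 3 control and 3 Dnmt1Δ/Δep libraries, grouped by their labels. The authors trimmed adapters, discarded short and ribosomal reads, aligned the remainder with STAR and ran htseq-count (union mode) on unique alignments. The deposited values are raw counts per Ensembl gene. The labels name GRCm38, whereas the study's methods name a human build for the alignment index, and whether counting used strand is not given in the sources used here. Rows that name no gene (8.73% to 12.9% of counted reads) were left out. The deposited tables of the authors' comparisons (normalized counts, fold changes, p-values) and the table of repeats were not used.

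All genes were tested with edgeR 4.0.16 (quasi-likelihood test, TMM, filterByExpr with minimum counts of 10 and 15, R 4.3.3) and Benjamini-Hochberg adjustment over 16829 genes, without a block, since the study's methods name none. RPKM are counts divided by the length of the union exons in kb (GENCODE M21, GRCm38) and by the TMM-normalized library size. Standard errors were derived by dividing the size of the log2 fold change by √F. Scripts were tested on simulated data. Symbols were found for 42462 of the 43629 identifiers (97.3%). Replicates of one number share a lane according to the headers of the count table, and their deviations from the group means correlated at 0.46, 0.40 and 0.31. Libraries of different numbers were not compared in this way, so whether the numbers pair the libraries beyond the lane was not tested. The block is an alternative. Other alternatives were DESeq2 1.42.0, RLE and upper-quartile scaling, no filter, a mean of at least 1 RPKM in either group, and leaving out each library.

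The desmosome genes and all gene lists were chosen with earlier results of these data known. Named genes are the 10 desmosome genes, the tested genes of the list of other desmosome genes, up to 3 genes of smallest p among those past the adjusted p and the most abundant gene from each other list, the 5 genes most like Dsc1 and Dsc3, and Dnmt1; of these, a part is printed. Krt1, Krt10, Ivl, Lor, Cd74, Trp63, Tek, Emcn, the leukocyte genes too low to be tested and further genes that passed in short lists fall outside this rule and were named after their values were seen.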

Additional observations from a re-analysis of the deposited data

How the results depend on the processing

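Of 122 alternative values for the 10 desmosome genes, 111 kept their direction and their side of the threshold, 6 passed it anew and 5 turned sign. Dsc2 was called in all 12 alternatives (adjusted p from 4.9e-07 to 0.043), and the count of members upregulated, and of those higher by adjusted p alone, stayed at 1. Members downregulated ran from 0 to 1 when single libraries were left out. Members lower by the adjusted p alone, 0 as reported, ran from 0 to 3 when single libraries were left out and were 2 with DESeq2 and 1 with the replicate block. Without single libraries the log2 fold change of Dsg3 ran from −0.028 to 0.042 and that of Dsc1 from −1.04 to 0.41. The sign of Dsg3 turned around 0 with RLE factors (−0.006), DESeq2 (−0.011), no filter (−0.014) and without Dnmt1Δ/Δep replicate 2 (−0.028), and that of Dsc1 without control replicate 3 (0.41). Over all genes, upregulated genes, 1014 as reported, ran from 559 to 1183 without single libraries and were 395 at 1 RPKM or more. Downregulated genes, 66 as reported, ran from 15 to 180, and were 122 with DESeq2, 107 without the filter and 35 at 1 RPKM or more. By the adjusted p alone, 1297 higher genes ran from 604 to 1684 and were 631 at 1 RPKM or more, and 279 lower genes ran from 35 to 650 and were 658 with DESeq2, 159 at 1 RPKM or more and 603 with the replicate block. Apart from Dsc3, the block changed no call among the 10 genes; the calls of Klk6 (adjusted p = 0.052), Cnfn (0.070), Fbn1 (0.060) and Csf1r (0.053) were lost with it. Among 40 other named or listed genes, 476 alternative values held 374 that kept their call, 77 that lost it, 14 that gained it and 11 that turned sign around 0. These were Cdh1 with RLE factors (−0.029), DESeq2 (−0.034), no filter (−0.037) and without single libraries (−0.074 to 0.045), and, without single libraries, Pkp4 (−0.104 to 0.097), Ppl (−0.0034 to 0.244) and Evpl (−0.0028 to 0.253). The alternatives for genes that had not passed were added after the data were seen; with 3 libraries in a group, a fit without a library rests on fewer samples. The cause of these changes was not tested. Without single libraries the share difference (Dnmt1Δ/Δep minus control) ran from 8.36 to 10.9 percentage points for Dsc2, from −1.51 to 1.31 for Dsc1 and from −10.4 to −0.356 for Dsg1a and Dsg1b. The shares of Dsc2 were also computed after its values were seen.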
